A study of Mus musculus with 2 samples.

Results

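The enzymes that carry glucose through glycolysis, the pentose phosphate branch and the citrate cycle were examined in mouse pancreatic islet cells by single-cell RNA sequencing. The set held 48 genes, listed by symbol, of 22383 features in the matrices, and all 48 symbols were found. They were grouped by role into upper glycolysis (7 genes), lower glycolysis (8), pyruvate dehydrogenase and its kinases (9), pyruvate carboxylase with Pck2 and the fructose bisphosphatases (4), the malate-aspartate and glycerol phosphate shuttles (6), the citrate cycle (10) and the pentose phosphate branch (4). Islets came from mice aged 5 weeks on a C57BL/6N background. TBL/RβKO mice were Ins1Cre TBL1X fl/fl TBL1XR1 fl/fl, with Cre placed in the endogenous Ins1 locus so that the 2 transcription co-factor genes Tbl1x and Tbl1xr1 were to be deleted in β-cells, and Cre-negative littermates, labelled wildtype, were the controls. Each group gave 1 library from 150 islets pooled from 4 mice, cultured overnight and loaded on a droplet instrument that tags the 3′ end of transcripts. There were thus no replicates, so that no difference can be compared with the variation among animals, and all intervals given are 95% intervals for counting error only. The comparison asks which of these enzymes differed between the 2 libraries in each endocrine cell class.

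In the β-cell, glucose enters through a transporter of low affinity, is phosphorylated and is broken down almost entirely to CO2 in mitochondria, and the ATP formed closes potassium channels and sets off insulin release. Mature β-cells hold very little lactate dehydrogenase, so the NADH of glycolysis is re-oxidised by 2 shuttles into the mitochondria, the malate-aspartate and the glycerol phosphate shuttle. Pyruvate enters the mitochondria both through pyruvate dehydrogenase and through pyruvate carboxylase, which is abundant in β-cells and refills the citrate cycle, while the pentose phosphate branch makes NADPH and ribose.

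Cells were kept with more than 2500 detected genes and under 10% mitochondrial UMIs (molecular tags, each marking 1 captured transcript), which left 4747 control cells and 4179 cells of the library labelled TBL/RβKO. A cell took the class of its most abundant hormone, at 100 or more UMIs per 10000. This gave 2877 and 1338 β-cells (insulin), 1284 and 1546 α-cells (Gcg), 223 and 374 δ-cells (Sst), 259 and 495 PP-cells (Ppy), and 104 and 426 cells of no class. Cre UMIs numbered 0 in the control, and 3107 in 274 β-cells and 13 in 11 α-cells of the other library. The targeted genes went against its label. In β-cells Tbl1x stood at 208 and 540 and Tbl1xr1 at 43.1 and 198 CPM (counts per 1000000 UMIs), so that every direction below is between the control library and the library labelled TBL/RβKO. A count over the whole gene, introns included, cannot tell a transcript that lacks its deleted exons from a full one. The β-cell classes also differed in other ways. Median insulin was 5089 and 2365 UMIs per 10000, a second hormone reached the limit in 16.3% and 60.8% of cells, 49.5% and 76.7% of cells held 6000 genes or more, and the median depth without hormones was 23843 and 43802 UMIs. Of the 6 β-cell markers besides insulin, Mafa stood at 996 and 132 and Nkx6-1 at 405 and 177 CPM, and none was at 0. The part of these differences in the results was not tested.

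Levels are given as counts per 1000000 UMIs (CPM) over all UMIs except those of the 4 hormones and of mitochondrial genes, and a log2 ratio is that of the library labelled TBL/RβKO over the control, with the median of all genes tested in the class set to 0. That median was -0.19 in β-cells before centring, and within ±0.02 in α-, δ- and PP-cells. A gene was tested at a mean of 10 CPM or more and called at a 2-fold difference. In β-cells 43 of the 48 enzymes were tested, all but Eno3, Pklr, Pdk2, Pdk4 and Fbp2, and 2 were called higher, Gpd1 and Pgd. That is 4.65% of those tested, against 3.98% of all 9171 genes tested. No enzyme was called lower, against 2.13% of all genes. The share called was thus near that of all genes. The median log2 ratio of the 43 enzymes was 0.00, and their quartiles were -0.19 and 0.37, against -0.20 and 0.22 over all genes. Most of the pathway therefore stood within 1.5-fold of the control on this scale. At a 1.5-fold limit Eno1 and Eno2 joined the higher enzymes (4 of 43, 9.30%, against 9.32% of all genes) and Pcx was the single lower one (5.71% of all genes). Of the 2 called enzymes Pgd was the nearer to the 2-fold limit, at 1.40. Just outside the limit were Eno1 at 0.96 and, at a mean of 5.44 CPM and so not tested, Pklr at -0.98. In α-cells of the same 2 libraries 44 enzymes were tested, with a median of -0.01 and quartiles of -0.11 and 0.12.

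**Figure D1:**
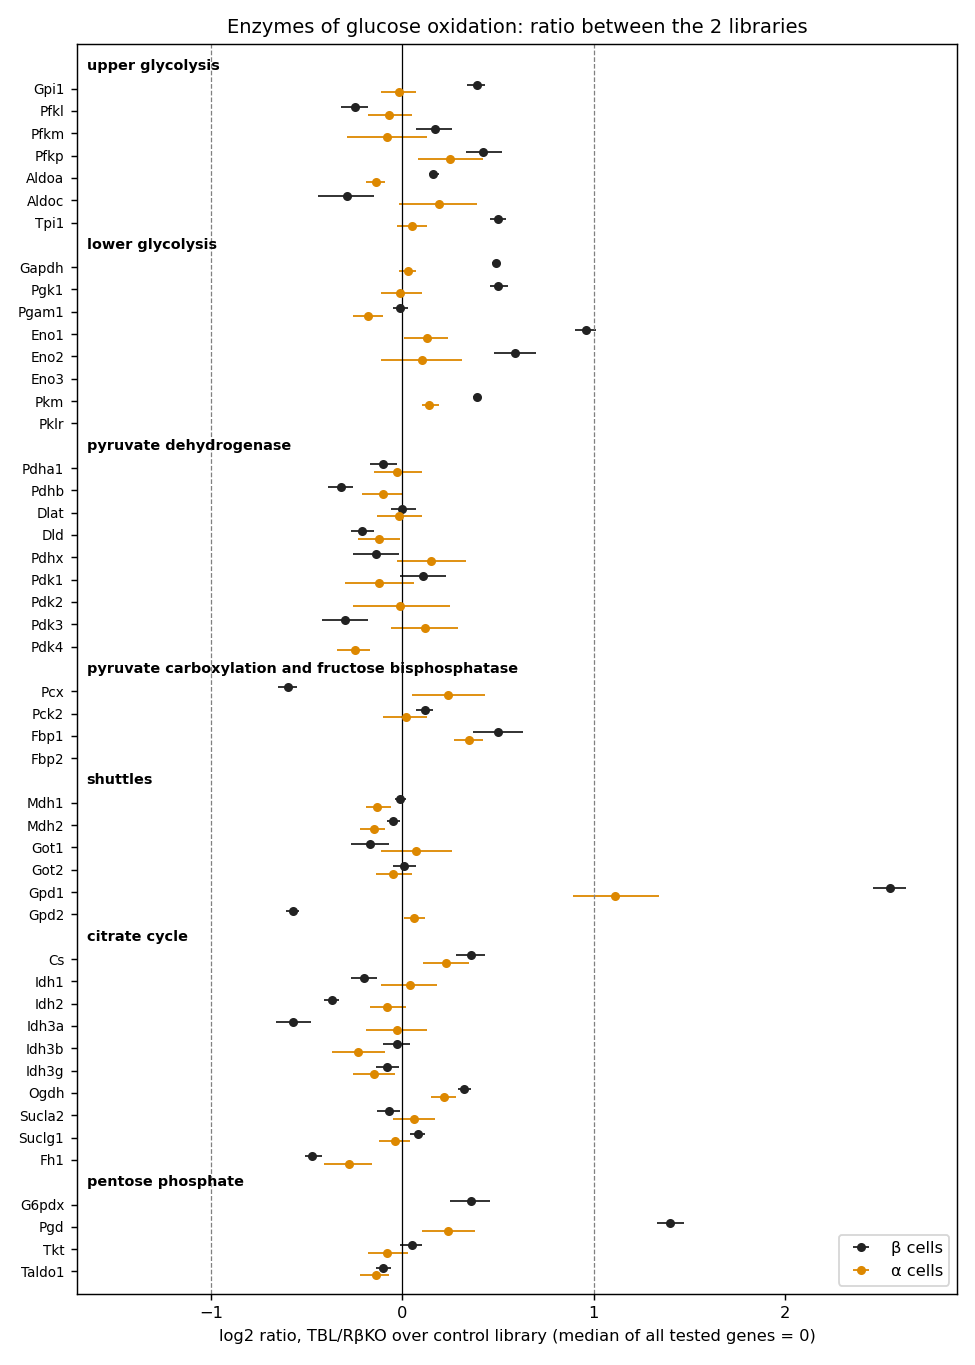
Log2 ratio (x axis) of the library labelled TBL/RβKO over the control for each enzyme (y axis, by role), with 95% counting intervals; black points are β-cells, orange points α-cells, dashed lines mark the 2-fold limit, and enzymes under a mean of 10 CPM in a class have no point. In β-cells Gpd1 at 2.55 and Pgd at 1.40 lie beyond the limit, and in α-cells Gpd1 at 1.11 alone does.

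In upper glycolysis, where glucose 6-phosphate is turned into triose phosphates, β-cells had a median log2 ratio of 0.17 over 7 enzymes, which was -0.02 without centring. Tpi1, the triose phosphate isomerase, was the highest at 0.50 (0.46 to 0.54), with 99.0 and 123 CPM. Gpi1, which isomerises glucose 6-phosphate, stood at 109 and 126 CPM (0.39). Phosphofructokinase, the committed step, showed unlike values for its 3 subunits. Pfkl, the liver type, had 4069 UMIs (48 CPM) in the control and 2326 UMIs (35.4 CPM) in the other library, a log2 ratio of -0.25 (-0.32 to -0.18). Pfkm, the muscle type, had 2135 UMIs (25.2 CPM) and 1629 UMIs (24.8 CPM). Pfkp, the platelet type, had 2038 UMIs (24.1 CPM) and 1858 UMIs (28.3 CPM), a log2 ratio of 0.42 (0.33 to 0.52). Shares within a family do not depend on the scaling, and Pfkl made up 49.4% (48.3% to 50.5%) of the phosphofructokinase UMIs of control β-cells and 40.0% (38.8% to 41.3%) in the other library, while Pfkp made up 24.7% and 32.0%. Pfkl made up 55.9% and 52.8% in α-cells, 51.8% and 45.9% in δ-cells and 54.8% and 46.1% in PP-cells, and Pfkp 25.5% and 29.9%, 29.1% and 36.6%, and 23.4% and 33.1% in the same order. Aldoa, an aldolase that splits fructose bisphosphate, had 36547 UMIs (431 CPM) and 27833 UMIs (424 CPM) in β-cells. The matrix held a second Aldoa feature with 9 and 6 UMIs, added to the first. Aldoc, the brain type, had 1065 UMIs (12.6 CPM) and 591 UMIs (9.0 CPM), a log2 ratio of -0.29.

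Lower glycolysis, from glyceraldehyde phosphate to pyruvate, had the highest median of any role in β-cells, 0.50 over 6 tested enzymes, with 5 of the 6 above 0. The median was 0.31 without centring and 0.79 with CPM taken over all UMIs, so that its direction did not depend on the scaling. Gapdh, the dehydrogenase that makes NADH, stood at 551 and 679 CPM (0.49), Pgk1, which makes the first ATP, at 95.8 and 119 CPM (0.50), and Pgam1, the mutase, at 139 and 121 CPM (-0.01). Of the enolases, Eno1 (GRCm39 chromosome 4, 150321073 to 150337027, plus strand) had 4916 UMIs (58.0 CPM) in the control and 6477 UMIs (98.7 CPM) in the other library, a log2 ratio of 0.96 (0.90 to 1.01). Eno1b, a copy of Eno1 with which reads could be shared, had 64 and 82 UMIs. Eno2, the neuronal enolase, had 1382 UMIs (16.3 CPM) and 1412 UMIs (21.5 CPM), a log2 ratio of 0.59 (0.48 to 0.70). Eno3, the muscle enolase, had 636 UMIs (7.51 CPM) and 414 UMIs (6.31 CPM), and its share of enolase UMIs was 9.17% and 4.99%. Pyruvate kinase was almost all Pkm, at 47976 UMIs (566 CPM) and 42652 UMIs (650 CPM). Pklr, the liver and red cell type whose gene is switched on by glucose, had 638 UMIs (7.53 CPM) and 220 UMIs (3.35 CPM). It made up 1.31% (1.21% to 1.42%) of pyruvate kinase UMIs in control β-cells and 0.513% (0.448% to 0.585%) in the other library. The share was 2.32% and 2.24% in α-cells, 3.14% and 1.61% in δ-cells and 3.77% and 1.68% in PP-cells. No enzyme of lower glycolysis was called in any class. The median of the role was 0.06 in α-cells, 0.18 in δ-cells and 0.50 in PP-cells, where Eno1 stood at 41.6 and 79.3 CPM (0.95) and Pkm at 301 and 459 CPM (0.63). With cells of 6000 genes or more left out these medians were -0.07, -0.01 and 0.19, and in the cells of 6000 genes or more alone 0.24, 0.43 and 0.65, against 0.54 and 0.46 in β-cells. The difference between the classes was not tested. Markers of other cell types also differed between the β-cell classes, with the ductal genes Krt19 at 2.41 and 97.8 CPM and Spp1 at 51.2 and 230 CPM. Pyy stood at 8194 and 50776 CPM. In the control it was at 155715 CPM in PP-cells, 68485 CPM in δ-cells and 18460 CPM in α-cells. Macrophage markers summed to 138 and 33.3 CPM in β-cells. The part of all these markers in the values above was not tested.

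**Figure D2:**
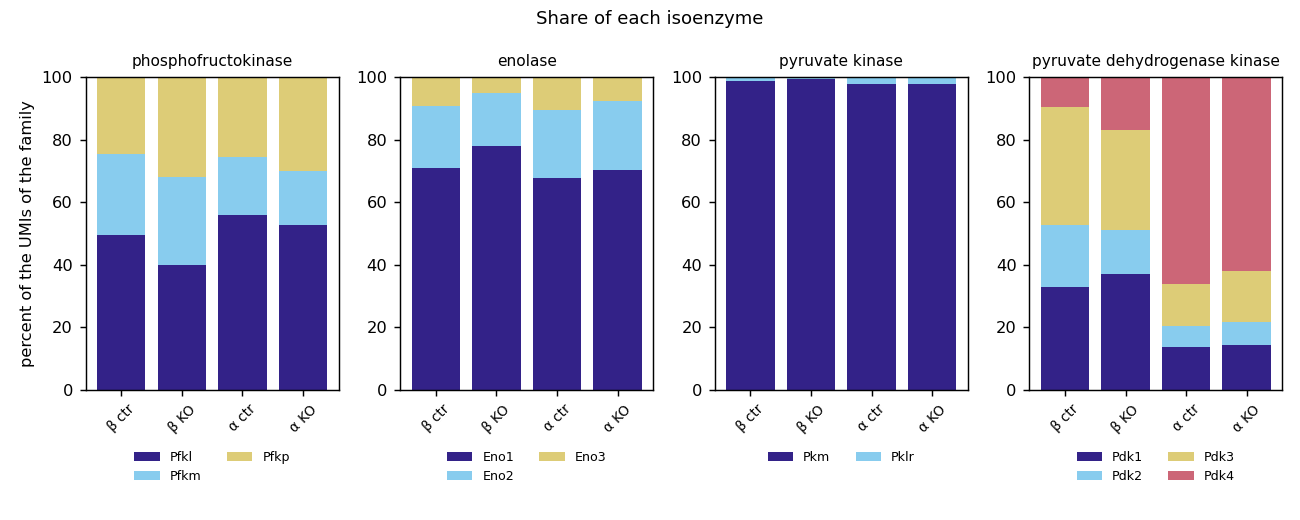
Percent (y axis) of the UMIs of each enzyme family taken by each isoenzyme in β- and α-cells (x axis) of the control library (ctr) and the library labelled TBL/RβKO (KO). In β-cells the Pfkl share was 49.4% and 40.0%, and Pdk4 made up 66.1% and 62.1% of pyruvate dehydrogenase kinase UMIs in α-cells.

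Pyruvate dehydrogenase turns pyruvate into acetyl-CoA, and its kinases switch it off. The 5 subunit genes of the complex (Pdha1, Pdhb, Dlat, Dld and Pdhx) ran from -0.32 (Pdhb, 59.0 and 41.3 CPM) to 0.00 (Dlat, 50.2 and 44.1 CPM) in β-cells. Over the 7 tested genes of this role the median was -0.14, which was -0.33 without centring and 0.15 with CPM over all UMIs, so its direction depended on the scaling. Among the kinases, Pdk1 had 1376 UMIs (16.2 CPM) and 1010 UMIs (15.4 CPM), Pdk2 833 UMIs (9.83 CPM) and 383 UMIs (5.83 CPM), and Pdk3 1577 UMIs (18.6 CPM) and 871 UMIs (13.3 CPM). Pdk4, which is induced by fasting and fatty acids in other tissues, set the cell classes apart. It stood at 104 CPM (2268 UMIs) in control α-cells, 18.7 CPM in PP-cells, 4.74 CPM (402 UMIs) in β-cells and 4.24 CPM in δ-cells, so that α-cells held 22.0 times (19.8 to 24.5) the level of β-cells, while β- and δ-cells did not differ beyond counting error. In the other library α-cells held 88.7 CPM (2376 UMIs), a log2 ratio of -0.25 (-0.34 to -0.17), and β-cells 7.02 CPM (461 UMIs). With every cell thinned to 5000 UMIs, 35% and 31.9% of α-cells and 1.74% and 3.14% of β-cells had a Pdk4 UMI. In cells of no hormone class, which hold macrophage, endothelial and stromal markers, 0.962% and 3.53% did, a level at which free RNA cannot be told from expression. Pdk4 made up 66.1% and 62.1% of kinase UMIs in α-cells and 9.60% and 16.9% in β-cells.

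Pyruvate carboxylase, Pcx (GRCm39 chromosome 19, 4559902 to 4672189, plus strand), had the lowest log2 ratio of the enzymes tested in β-cells. In the control it was the enzyme that stood furthest above the other classes in β-cells. Control β-cells held 128 CPM (10825 UMIs), against 18.1 CPM in α-cells, 15.8 CPM in PP-cells and 13.8 CPM in δ-cells, a 7.05-fold (6.37 to 7.81) higher level than in α-cells. The 3 other classes did not differ from each other by more than 1.5-fold. In β-cells of the library labelled TBL/RβKO it stood at 73.8 CPM (4847 UMIs), a log2 ratio of -0.60 (-0.65 to -0.55) that stayed below 0 under each scaling (-0.79 without centring, -0.31 with CPM over all UMIs). In PP-cells the values went the other way, 15.8 CPM (110 UMIs) and 35.3 CPM (558 UMIs), a log2 ratio of 1.17 (0.88 to 1.48). The difference between the classes was not tested. Iapp, a β-cell hormone gene, stood at 11330 and 23287 CPM in the same PP-cells, and with cells of 6000 genes or more left out Pcx was at 0.67 in PP-cells and -0.38 in β-cells. Among β-cells with no second hormone Pcx stood at 143 and 115 CPM, a log2 ratio of -0.18. Thinned to 5000 UMIs, 45.4% (43.6% to 47.2%) of control β-cells and 27.1% (24.8% to 29.6%) of those of the other library had a Pcx UMI, against 8.29% and 9.09% of α-cells and 1.92% and 3.53% of cells of no class.

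Pck2, the mitochondrial enzyme that makes phosphoenolpyruvate, stood at 104 and 99.1 CPM in β-cells (0.12). Fbp1 removes a phosphate from fructose bisphosphate against the direction of glycolysis. In the control it was lowest in β-cells, the class in which Pcx was highest. Control α-cells held 110 CPM (2392 UMIs), δ-cells 59.8 CPM, PP-cells 18.1 CPM and β-cells 11.7 CPM (988 UMIs), and α-cells were 9.44-fold (8.76 to 10.2) above β-cells. In the library labelled TBL/RβKO α-cells held 142 CPM (3798 UMIs, 0.35) and β-cells 14.5 CPM (951 UMIs, 0.50), both within 1.5-fold of the control. Fbp2, the muscle type, had 58 and 36 UMIs in β-cells and 21 and 37 in α-cells and was under the limit for testing in every class.

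**Figure D3:**
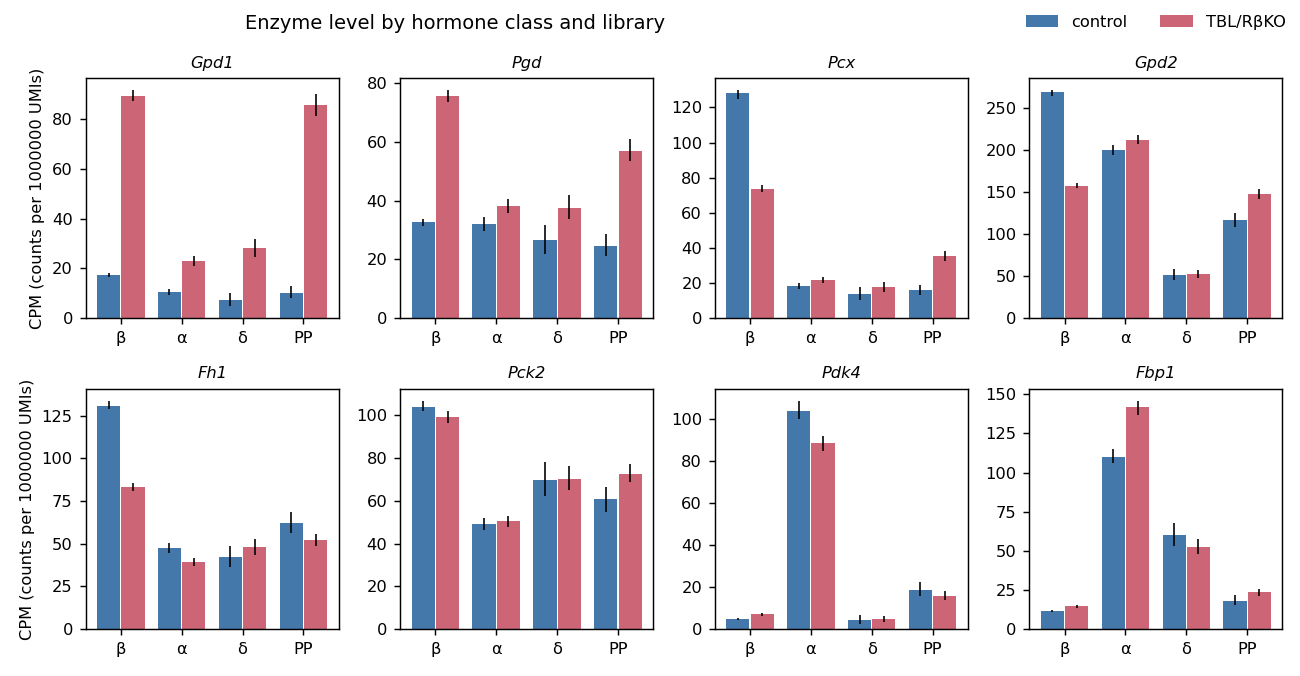
Level (y axis, CPM without hormones and mitochondrial genes) of 8 enzymes in β-, α-, δ- and PP-cells (x axis) of the control library (blue) and the library labelled TBL/RβKO (red); lines are 95% counting intervals and each panel has its own scale. Gpd1 is higher in the library labelled TBL/RβKO in each of the 4 classes, Pcx is highest in control β-cells, and Pdk4 and Fbp1 are highest in α-cells.

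The glycerol phosphate shuttle gave the highest ratio of the 48 enzymes. Gpd1 (GRCm39 chromosome 15, 99615396 to 99622893, plus strand) codes for the cytosolic glycerol 3-phosphate dehydrogenase, which oxidises glycolytic NADH and also feeds glycerol lipid synthesis. It had 1477 UMIs (17.4 CPM) in control β-cells and 5865 UMIs (89.4 CPM) in the other library's β-cells, a 5.84-fold difference and a log2 ratio of 2.55 (2.46 to 2.63). PP-cells had 71 UMIs (10.2 CPM) and 1351 UMIs (85.5 CPM), a log2 ratio of 3.08 (2.74 to 3.45). In δ-cells the counts were 33 (7.37 CPM) and 248 (28.0 CPM), a log2 ratio of 1.94 (1.41 to 2.51). α-cells had 227 UMIs (10.4 CPM) and 614 UMIs (22.9 CPM), a log2 ratio of 1.11 (0.89 to 1.34). Gpd1 was thus called higher in each of the 4 classes, and not in β-cells alone. In the control the 4 classes lay between 7.37 and 17.4 CPM, with β-cells highest, and α- and PP-cells did not differ beyond counting error.

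Gpd1 UMIs were spread over many β-cells. The 10 cells with the most held 8.25% of them in the library labelled TBL/RβKO, where 998 of 1338 β-cells had at least 1. Thinned to 5000 UMIs, 7.45% (6.52% to 8.48%) of control and 28.1% (25.7% to 30.6%) of the other library's β-cells had a Gpd1 UMI, as did 6.18% and 20.2% of PP-cells, 4.69% and 6.82% of α-cells, 4.50% and 6.95% of δ-cells and, as background, 0.962% and 1.18% of cells of no class. In δ-cells 10 cells held 52.8% of the Gpd1 UMIs of that library. The α-cell call rested on the cells with most genes. It was 2.07 (9.73 and 39.8 CPM) among α-cells with 6000 genes or more, and 0.41 (10.8 and 14.7 CPM) among the others. It was 0.47 among α-cells with no second hormone and 0.93 with likely doublets removed. A second hormone reached the limit in 59.6% and 20.3% of α-cells, 83.4% and 66.8% of δ-cells and 56.4% and 57.6% of PP-cells. Median insulin in α-cells was 97.1 and 18.6 UMIs per 10000, and Ins2 made up 11.5% and 2.65% of free RNA. Cells with no second hormone were thus unlike shares of the α-cells of the 2 libraries. The part of free insulin RNA in this selection was not tested. In β-cells Gpd1 stood at 17.7 and 53.5 CPM with no second hormone, a log2 ratio of 1.74, and it was past 2-fold in β-, δ- and PP-cells in each of these selections, although δ-cells with no second hormone were under the limit for testing (2.9 and 10.0 CPM).

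Gpd2, the mitochondrial partner of Gpd1 in this shuttle and a gene known to be abundant in β-cells, ran the other way in β-cells. It stood at 269 CPM (22754 UMIs) and 158 CPM (10387 UMIs), a log2 ratio of -0.57 (-0.61 to -0.54) that remained below 0 under each scaling (-0.76 without centring and -0.28 with CPM over all UMIs). In α-cells it was at 200 and 212 CPM (0.06). Thinned, 67.9% and 51.1% of β-cells and 58.3% and 60.3% of α-cells had a Gpd2 UMI. Over all β-cells the malate-aspartate shuttle stayed close to the median. Mdh1, the cytosolic malate dehydrogenase, stood at 258 and 225 CPM (-0.01), its mitochondrial partner Mdh2 at 174 and 148 CPM (-0.05), and the aspartate aminotransferases Got1 and Got2 at 26.9 and 20.9 CPM (-0.17) and at 73.1 and 64.6 CPM (0.01).

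In the citrate cycle 7 of 10 genes were below the median in β-cells, with a median log2 ratio of -0.08. With CPM taken over all UMIs the same median was 0.22, so its direction was set by the scaling. The lowest were Idh3a, the catalytic subunit of the NAD-linked isocitrate dehydrogenase, at 38.4 and 22.7 CPM (-0.57), Fh1, fumarase, at 131 and 83.3 CPM (-0.47), and Idh2, the mitochondrial NADP-linked enzyme, at 190 and 129 CPM (-0.37), and these 3 were below 0 under each scaling. Idh3b and Idh3g, the partner subunits of Idh3a, were at -0.03 and -0.08. Citrate synthase, Cs, stood at 34.4 and 38.6 CPM (0.36), and Ogdh, of the 2-oxoglutarate dehydrogenase complex, at 170 and 186 CPM (0.32). The succinyl-CoA ligase subunits Sucla2 and Suclg1 were at -0.07 and 0.08, and Idh1, the cytosolic enzyme, at -0.20. Fh1 and Idh2 were also β-cell-rich in the control, 2.77-fold (2.60 to 2.96) and 2.38-fold above α-cells. In all, 4 enzymes stood at least 2-fold higher in control β- than α-cells (Pcx, Pck2, Idh2 and Fh1) and 2 at least 2-fold lower (Pdk4 and Fbp1), of 45 tested. Over all genes 6.15% were higher and 7.12% lower.

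In the pentose phosphate branch Pgd (GRCm39 chromosome 4, 149233246 to 149251228, minus strand), which codes for 6-phosphogluconate dehydrogenase, the second NADPH-forming step, was the other enzyme called in β-cells. It had 2768 UMIs (32.7 CPM) in the control and 4962 UMIs (75.6 CPM) in the other library, a 2.64-fold difference and a log2 ratio of 1.40 (1.33 to 1.47). PP-cells had 171 UMIs (24.6 CPM) and 901 UMIs (57.0 CPM), a log2 ratio of 1.23 (0.99 to 1.47), which was 0.41 without the cells of 6000 genes or more. In α-cells the values were 31.9 and 38.1 CPM (0.24) and in δ-cells 26.6 and 37.6 CPM (0.51). Thinned to 5000 UMIs, 15.2% (13.9% to 16.6%) and 27.1% (24.8% to 29.6%) of β-cells and 14.9% in both libraries of α-cells had a Pgd UMI. Pgd is a housekeeping enzyme, and in cells of no class 45.2% and 28.2% did, so no class served as a background for it. The enzyme before it, G6pdx, which sets the rate of the branch, stood at 17.8 and 19.9 CPM in β-cells (0.36). The sugar-rearranging enzymes Tkt and Taldo1 were at 0.05 and -0.10.

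Promoter windows from RefSeq (build GRCm38.p6, 250 bases before a start) were found for 46 of the 48 enzymes, not for Gpd1 and Idh3a. They are shown for Pgd, called higher in β-cells, and for Pcx, which went opposite ways in β- and PP-cells, each at its most upstream start and on the strand of the gene. Capitals mark an E-box, CACGTG, a palindromic site of basic helix-loop-helix factors.
Pgd, chr4:149166706-149166955, minus strand: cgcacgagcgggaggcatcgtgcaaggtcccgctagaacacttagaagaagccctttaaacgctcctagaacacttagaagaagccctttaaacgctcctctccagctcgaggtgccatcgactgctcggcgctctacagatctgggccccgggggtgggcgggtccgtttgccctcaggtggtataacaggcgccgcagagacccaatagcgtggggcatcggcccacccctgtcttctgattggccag
Pcx, chr19:4510222-4510471, plus strand: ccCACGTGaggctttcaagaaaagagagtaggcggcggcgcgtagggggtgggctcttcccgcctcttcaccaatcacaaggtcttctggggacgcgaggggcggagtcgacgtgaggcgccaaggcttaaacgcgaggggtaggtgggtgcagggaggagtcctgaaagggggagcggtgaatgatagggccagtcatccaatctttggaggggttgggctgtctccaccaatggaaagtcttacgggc
The Pcx window held 1 E-box, 248 bases before the start, and the Pgd window none. Counting every start, 5 of the 46 enzymes (10.9%) had an E-box (Fbp2, Ogdh, Pcx, Pdk2 and Pfkm), against 6.86% of 27025 genes. The core of the antioxidant response element, TGACNNNGC on either strand, was in 5 (10.9%: Aldoa, Fbp1, G6pdx, Idh3g and Sucla2), against 11.5% of genes, and no enzyme had both. The 2 motifs can overlap by a few bases, and a match in these windows is a description only.

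The insulin content of β-cells differed between the libraries, so the enzymes were also compared within ranges of insulin. The range of 3000 or more insulin UMIs per 10000 held 2562 control cells and 521 cells of the library labelled TBL/RβKO, with a median insulin of 5218 and 4314, that of 1000 to 3000 held 152 and 574, and that under 1000 held 163 and 243. The control cells of the lowest range had a median of 8448 UMIs and carried the macrophage gene C1qb at 739 CPM and the endothelial gene Flt1 at 269 CPM, so they are not a β-cell reference. In the highest range Gpd1 stood at 18.1 and 56.0 CPM (1.83, 1.72 to 1.94) and Pgd at 31.4 and 58.0 CPM (1.09, 0.99 to 1.18), and these were again the 2 enzymes called higher, of 42 tested, with none lower, against 2.84% and 1.38% of all genes. In the middle range median insulin was 2439 and 1839. There Gpd1 stood at 13.9 and 103 CPM (3.13), Pgd at 29.1 and 79.9 CPM (1.69) and Eno1 at 55.2 and 101 CPM (1.11). These were the 3 enzymes called higher there, of 44 tested, against 4.19% of all genes. Fbp1 was the 1 called lower, at 43.6 and 14.4 CPM (-1.36), against 3.42% of all genes. Fbp1 went the other way in the highest range, at 8.32 and 11.0 CPM (0.60, 0.38 to 0.82). Pdk4 also changed direction, at 15.5 and 7.71 CPM (-0.76, -1.09 to -0.43) in the middle range. In the highest range Pdk4 was under the limit for testing, at 3.15 and 5.06 CPM (0.88, 0.55 to 1.21). A second hormone was found in 82.2% and 79.4% of middle-range cells. Control cells there carried Pyy, a gene abundant in both PP- and δ-cells, at 36069 CPM, against 5509 CPM in the highest control range. The part of these differences in the middle-range values was not tested. In the lowest range Gpd1 stood at 5.25 and 114 CPM (4.62) and Pgd at 95.5 and 96.3 CPM (0.19, -0.04 to 0.42), and 5 enzymes were called higher (Pfkm, Pfkp, Tpi1, Pck2 and Gpd1) and 2 lower (Pdk4 and Taldo1) of 43, against 10.0% and 12.6% of all genes. The highest range still differed between the libraries in other ways, with a second hormone in 11.1% and 31.5% of cells, Mafa at 1082 and 330 CPM and Slc2a2 at 732 and 196 CPM, and their part was not tested.

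Other enzymes differed with the insulin content within a library. Fh1 stood at 139 and 122 CPM in the highest range, a log2 ratio of 0.01 (-0.05 to 0.07), and at 75.6 and 69.6 CPM (0.12) in the middle one, where over all β-cells it had been at -0.47. Mdh1, close to the median over all β-cells, stood at 268 and 287 CPM (0.30, 0.26 to 0.34) in the highest range. In the middle range Mdh1 was at 197 and 201 CPM (0.26, 0.18 to 0.35). Within the library labelled TBL/RβKO Fh1 stood at 49.0 CPM in the lowest range and 122 in the highest, a log2 ratio of -1.32 (-1.45 to -1.19). Pcx stood at 57.4 and 99.0 CPM in these ranges (-0.79), Mdh1 at 174 and 287 CPM (-0.72) and Pck2 at 82.3 and 117 CPM (-0.51). In the same comparison Gpd1 went the other way, at 114 and 56.0 CPM (1.02), as did Fbp1 at 21.1 and 11.0 CPM (0.94) and Pgd at 96.3 and 58.0 CPM (0.73). Cells with a second hormone made up 79.4% of that library's lowest range and 31.5% of its highest, and the part of this in the differences was not tested. Against the control in the highest range Pcx was at -0.25 (135 and 99.0 CPM), and in the middle one at -0.03 (-0.17 to 0.11, 75.5 and 62.6 CPM). Gpd2 was still at -0.50 (276 and 169 CPM) in the highest range and at -0.31 in the middle one. Idh3a was at -0.46 (39.2 and 24.8 CPM) and -0.36 in the same order.

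**Figure D4:**
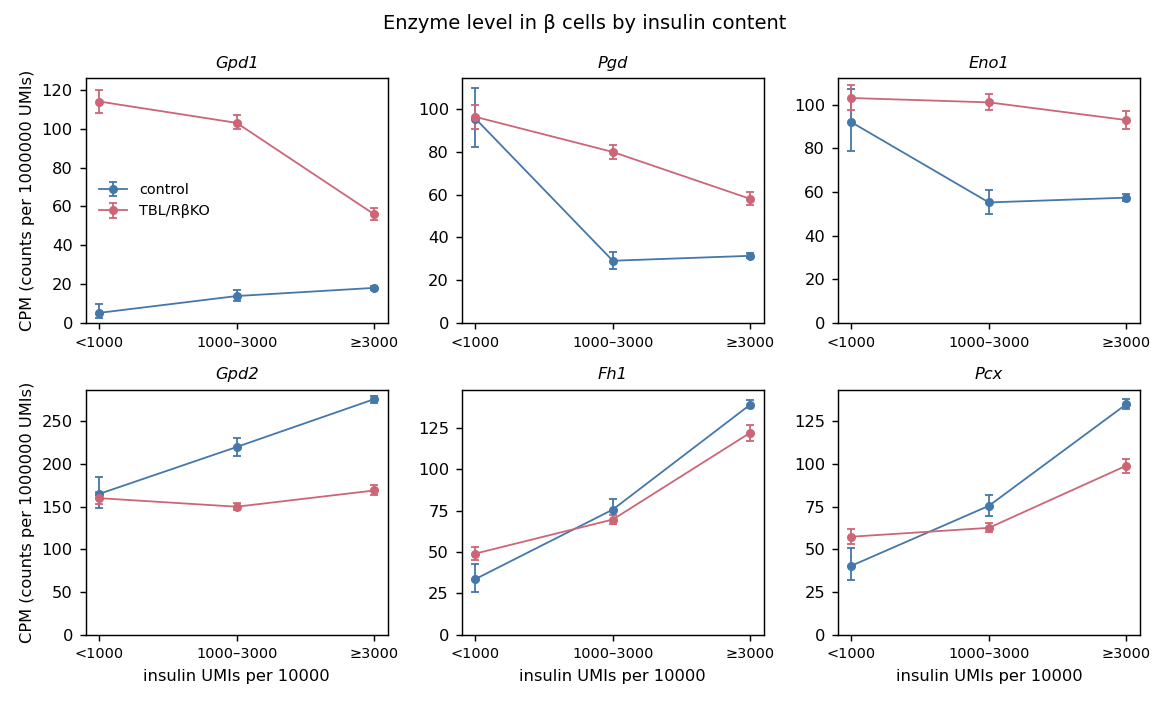
Level (y axis, CPM) of 6 enzymes in β-cells by range of insulin UMIs per 10000 (x axis) in the control library (blue) and the library labelled TBL/RβKO (red), with 95% counting intervals; the control cells under 1000 carry macrophage and endothelial genes. In the 2 upper ranges Gpd1, Pgd and Eno1 are higher and Gpd2 lower in the library labelled TBL/RβKO, while the Fh1 values of the 2 libraries lie close together.

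In the other endocrine classes few enzymes stood apart. In α-cells Gpd1 was the single enzyme called higher (1 of 44, against 0.566% of all genes) and none was called lower (0.107%), with the next values at 0.35 (Fbp1) and -0.28 (Fh1, 47.4 and 39.5 CPM). In δ-cells Gpd1 was again the single one (1 of 43, against 0.766%), with none lower (0.372%) and Pdk3 lowest at -0.59 (133 and 173 UMIs). In PP-cells 3 of 44 were called higher, Gpd1, Pgd and Pcx (6.82%, against 4.10% of all genes), and none lower (1.13%). Cre UMIs numbered 43, in 15 of the 495 PP-cells of that library. With cells of 6000 genes or more left out, Gpd1 at 1.98 was the one enzyme called in PP-cells, as it was with each cell weighted equally. Among PP-cells of 1 hormone Pgd was not called, and none of the 3 passed a filter of 50 CPM. In cells of no hormone class 36 enzymes were tested and none was called, against 9.96% of all genes higher and 7.40% lower there.

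A further 49 genes of the same pathways, which complete the transporters, kinases and carriers, gave 32 tested in β-cells. Me1 and Slc25a1 were called higher (2 of 32, 6.25%, against 3.98% of all genes) and Slc2a2, Pfkfb2 and Tigar lower (3 of 32, 9.38%, against 2.13%). Slc2a2, the glucose transporter, stood at 679 and 85.0 CPM (-2.81). Pfkfb2, which makes the activator of phosphofructokinase, stood at 33.7 and 13.6 CPM (-1.12), and Tigar, which degrades it, at 24.8 and 10.2 CPM (-1.09). Me1, the cytosolic malic enzyme that makes NADPH, stood at 50 and 142 CPM (1.70) and Slc25a1, the mitochondrial citrate carrier, at 84.8 and 150 CPM (1.01).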

How the data were processed

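The deposited values are unnormalised UMI counts, 1 matrix per library. The authors made them with Cell Ranger 7.1.0 at its standard settings (GRCm39 in the submitters' processing notes), which count intronic reads, so genes with long introns can gain UMIs. As deposited, the counts had no free RNA, doublets or cells of many genes removed. The study's upper limit of 6000 genes was used only as an alternative. The control library held 7067 barcodes and 241434108 UMIs, the other 5833 and 185062206, and 14 barcodes occurred in both.

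Counts were summed per library and hormone class. CPM had exact Poisson, ratios exact conditional binomial and shares exact Clopper-Pearson intervals (95%). With 1 library per group no test was possible. Scrublet (scanpy 1.11.5) marked 1.28% and 0.0187% of scored barcodes, so it had not worked in the second, and doublets were kept. The highest scores (5.65% and 4.67%) were removed as an alternative. Thinning to 5000 UMIs left out at most 6 cells per class and library. The scripts were tested on simulated counts. UMIs and CPM are given for each enzyme called in any class at 100 UMIs or more and for the isoenzyme families, the others by range or ratio. Positions come from GENCODE M39 (all matched). Python 3.11.15, numpy 2.4.6, scipy 1.17.1, pandas 2.3.3 and matplotlib 3.10.9 were used. Of the further pathway genes, 2 are not reported here. The enzymes and lists were chosen with earlier results of these data known.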

Additional observations from a re-analysis of the deposited data

Results flagged for a closer look

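Pcx, pyruvate carboxylase, stood at opposite sides of the median in 2 classes of the same libraries, with a log2 ratio of the library labelled TBL/RβKO over the control of -0.60 in β-cells (128 and 73.8 CPM) and 1.17 in PP-cells (15.8 and 35.3 CPM). It is listed because both values passed 1.5-fold and both counting intervals left out 0. In the 2 upper ranges of insulin, Pcx in β-cells was at -0.25 (highest range) and -0.03 (middle range). The difference between the classes was not tested.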

How the results depend on the processing

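Of the 4 counts of called enzymes (higher and lower, in β- and in α-cells), that of 2 higher in β-cells was 3 with CPM over all UMIs, where Eno1 joined, and 4 at a 1.5-fold limit, and it stayed at 2, with Gpd1 and Pgd, in the other alternatives, single ranges of insulin aside. The count of 0 lower in β-cells was 1 without a filter on low values (Pklr) and 1 at a 1.5-fold limit (Pcx). Within ranges of insulin the counts differed, with 5 higher and 2 lower under 1000 and 3 higher and 1 lower at 1000 to 3000. The 1 higher in α-cells, Gpd1, became 0 under 6000 detected genes, with doublets removed, with cells of 1 hormone, with each cell weighted equally and with a filter of 50 CPM, which Gpd1 does not pass. The cause of the other 4 was not tested. None was lower in α-cells under any alternative run. Over the alternatives Gpd1 ran from 1.74 to 2.84 and Pgd from 1.18 to 1.69 in β-cells, and Gpd1 from 0.41 to 2.07 in α-cells. CPM over all UMIs without centring put 14 of 43 enzymes on the other side of 0 in β-cells, none past 0.29 before, since its median over all genes was 0.31. Single-enzyme values were compared for Gpd1, Pgd, Pcx and the isoenzyme families in β- and α-cells. These came out within their counting interval in 258 cases and outside it in 103, and no called value changed sign. The 2 added selections, β-cells with 1000 or more insulin UMIs per 10000 and cells with 6000 genes or more, were chosen after seeing the data. No paired analysis was possible because each group has 1 library. Depth limits Fbp2, Pklr and, in δ- and PP-cells, most values under 20 CPM.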

Other observations

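Ldha, the lactate dehydrogenase that mature β-cells hold at very low levels, had 342 UMIs (4.04 CPM) and 389 UMIs (5.93 CPM) in β-cells. That was a log2 ratio of 0.74 (0.53 to 0.96), at a level under the limit for testing. The 10 β-cells that held most had 31.0% and 57.3% of these UMIs. In δ-cells Ldha had 21 UMIs (4.69 CPM) and 143 UMIs (16.2 CPM), in 16 of 223 and 64 of 374 cells. It was called higher there (1.80, 1.13 to 2.53), as 1 of 33 further pathway genes tested, against 0.766% of all genes.

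Cells of no hormone class held unlike cell types in the 2 libraries, with B-cell markers summed to 2.97 and 974 CPM. Endothelial markers summed to 3135 and 560 CPM in the same cells.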
